A study of Mus musculus with 6 samples.

Results

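Cadherins and protocadherins were followed in mouse cardiac fibroblasts given Cre in culture to delete the DNA dioxygenase TET3. Members were the rows of the deposited gene table whose symbol begins with Cdh and a digit or with Pcdh, apart from Cdh5, which was kept as an endothelial marker. The rule gave 91 genes of 22063. They comprised 17 classical cadherins (5 of type I and 12 of type II), 5 other cadherins, 12 nonclustered protocadherins, and 14, 22 and 21 protocadherins of the alpha, beta and gamma clusters. All RNA came from primary fibroblasts of the heart carrying floxed Tet3 alleles (Tet3 f/f), treated with TGF-β. In 3 control libraries (GFP) the cells had received an adenovirus coding for GFP, and in 3 libraries labelled Tet3 knockout (CRE) an adenovirus coding for Cre recombinase. Deletion therefore depended on viral Cre in cultured cells, and no group without TGF-β was among the samples. The study speaks of biological replicates for the set of experiments these libraries belong to, but the labels do not say whether the 3 libraries of a group came from separate cultures or animals. The p-values below measure only the spread between these libraries, part of which may be technical.

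Cadherins are transmembrane proteins whose extracellular repeats bind calcium and pair with cadherins on a neighbouring cell. Classical cadherins are anchored to actin through β-catenin, p120-catenin and α-catenin, and fibroblasts of the heart are known for N-cadherin (Cdh2) and cadherin-11 (Cdh11), the latter a molecule of mesenchymal and myofibroblast contacts. Protocadherins lack the catenin-binding tail. The clustered ones are arrayed in tandem, with a promoter before each variable exon, and in neurons a few are chosen per cell in a process that depends on CTCF, cohesin and promoter methylation, and their promoters are well-known targets of DNA methylation. TET enzymes oxidize methylated cytosine.

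The total count per library was between 17002126 and 20343590. Levels are given as TMM-scaled CPM (each count relative to the total of its library, corrected for composition), with factors of 0.944 to 0.947 in GFP and 1.05 to 1.06 in CRE. The targeted gene, Tet3, was measured at 64.9, 54.4 and 52.0 CPM in GFP and at 34.5, 35.9 and 33.6 CPM in CRE, a log2 fold change of -0.72 ± 0.08 (SE). The CRE level was thus 60.8% of GFP, and counts over the whole gene do not show how much of the RNA still held the floxed part. Of markers of other cells, 10 of 11 endothelial genes were lower in CRE (summed level 475 to 533 CPM in GFP and 208 to 243 CPM in CRE). The cardiomyocyte gene Myh6 was at a count of 0 in all 6 libraries, and none of 6 cardiomyocyte markers had counts enough to be tested. Fibroblast markers were present in both groups, with a summed level of 27619 to 28759 CPM in GFP and 16738 to 18153 CPM in CRE, and 7 of 8 were lower in CRE. Of the other lists, all 3 myofibroblast markers were lower, 4 of 8 pericyte and smooth muscle markers were lower and 1 was higher, and 2 of 4 tested macrophage markers were lower.

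Most cadherins and protocadherins that were expressed had less RNA in CRE than in GFP, and few had more. Of the 60 members with counts enough to be tested, 35 fell, 4 rose (Cdh4, Cdh24, Pcdh1 and Pcdh7) and 21 were not called. Genes were called at 0.05 on the p of the quasi-likelihood test in edgeR, adjusted by Benjamini-Hochberg over the 12862 genes tested. Among all genes tested, 51.2% were called, 25.5% higher and 25.7% lower. The members' share of lower calls was thus 58.3%, against 25.7% for all genes. The median log2 fold change was -0.51 over the 60 members and 0.01 over all genes tested. On the log2(FPKM + 1) and log2(FPKM + 0.1) scales the members' median was -0.21 and -0.30, with 0.13 and 0.17 over all genes. The 6 values of a gene did not overlap between groups for 41 of the 60 members, against 59.6% of all genes tested. In bulk RNA, fewer cells of a type and less RNA per cell cannot be told apart. Of the 31 members that were not tested, 6 were at a count of 0 in every library (Cdh7, Cdh12, Cdh16, Cdh20, Pcdhac1 and Pcdhb1), and E-cadherin (Cdh1), the epithelial cadherin, had 2 to 4 counts per library.

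**Figure D1:**
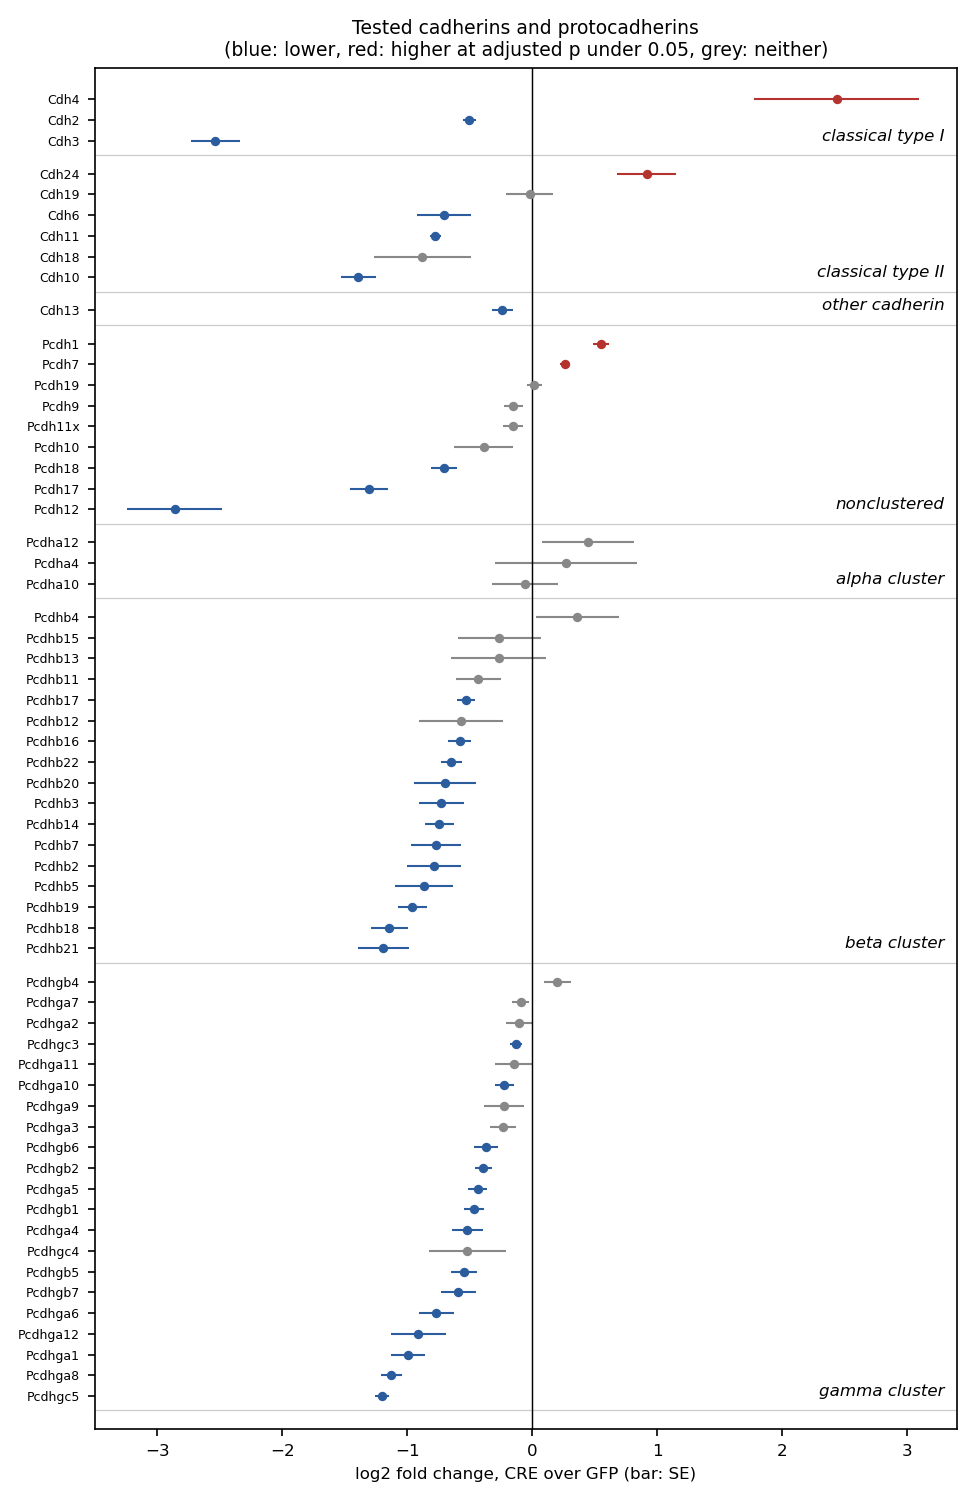
Log2 fold change of CRE over GFP for the 60 tested members, grouped by class, with the standard error as the bar. Blue points are genes called lower, red points genes called higher and grey points genes not called. Beta and gamma genes lie mostly left of 0, and the 4 red points are in the classical and nonclustered classes.

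The scaling of libraries moved the number of calls and the sign of some members. With library size alone, without TMM, the median of all genes moved up by 0.16 on the log2 scale and 72.6% of all calls were higher, against 49.8% with TMM. Under that scaling the members' median was -0.35, 8 of the 60 log2 fold changes turned from negative to positive, among them that of Pcdhgc3, and 6 members were called higher and 29 lower, the latter 48.3% of the members tested against 16.2% of all genes. Under the other scalings, filters, tests and left-out libraries, 16 settings in all, 27 of the 35 lower calls and 3 of the 4 higher calls passed the threshold wherever the gene was tested. The study's rule, which also asks for a fold change over 1.5 or under 0.66, kept 22 and 2 of them. That rule called 38.3% of the members lower, against 10.3% of all genes.

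By the authors' FPKM, which divide by length, the members with the highest values in GFP were N-cadherin, Pcdhgc3, Cdh11 and Pcdh7. The authors' FPKM of Cdh2 was 140.7 ± 7.54 (SD, n = 3) in GFP, ahead of 90.8 for Pcdhgc3, 84.7 for Cdh11 and 54.6 for Pcdh7. In CRE the order of the last 2 was exchanged, at 111 for Cdh2, 93.0 for Pcdhgc3, 72.7 for Pcdh7 and 55.4 for Cdh11. FPKM values carry no TMM scaling. The length implied by the FPKM of Pcdhgc3, 4687 bases, was more than the 3380 exonic bases it does not share on its strand. Reads of exons shared by gamma genes were not counted in full, as described below. The FPKM of Pcdhgc3 may therefore be too low, and its place against Cdh2 is not settled. The members together took 0.252 to 0.266% of all counts in GFP and 0.228 to 0.232% in CRE. Cdh11 made up 18.6% ± 0.12 of the members' counts in GFP and 13.6% ± 0.71 in CRE. Pcdh7 moved the other way, from 11.7% ± 0.08 to 17.7% ± 0.40. These shares do not use any scaling of libraries, and their groups did not overlap (exact permutation test, two-sided, p = 0.1 each, the smallest that 3 against 3 libraries allow).

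**Figure D2:**
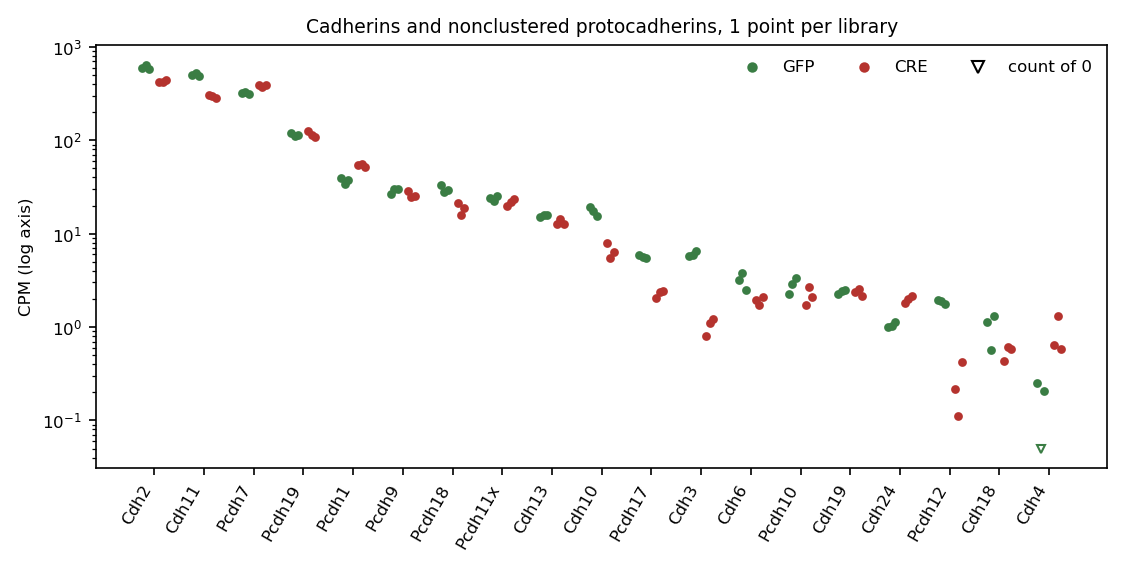
CPM on a log axis of each tested cadherin and nonclustered protocadherin, with 1 point per library, GFP in green and CRE in red. Genes are ordered by level, from Cdh2 with a mean of 608 CPM in GFP to Cdh4, which had a count of 0 in 1 GFP library, drawn as an open triangle below the other points.

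Among the type I cadherins, Cdh2 and Cdh3 fell and Cdh4 rose. N-cadherin, encoded by Cdh2, links fibroblasts to each other and to cardiomyocytes. It was measured at 592, 645 and 587 CPM in GFP and at 417, 425 and 446 CPM in CRE. Every CRE library lay below every GFP library, and the log2 fold change was -0.50 ± 0.05 (SE; adjusted p = 2.31e-05), a fall to 70.6% of the GFP mean. P-cadherin (Cdh3), a cadherin of epithelia and of some mesenchymal cells, had 93, 104 and 126 counts in GFP and 15, 20 and 23 in CRE. It was the second largest fall of the family, with a log2 fold change of -2.53 ± 0.19 (adjusted p = 4.33e-06) and a level of 17.2% of GFP. Cdh3 lies beside Cdh1 on the plus strand of chromosome 8 (106510891 to 106557297 in GRCm38). Of 5 mesothelial and epithelial markers tested 3 were higher and 1 was lower, with a summed level of 8.39 to 10.1 CPM in GFP and 9.08 to 13.8 CPM in CRE, and their part in the result for Cdh3 was not tested. R-cadherin (Cdh4), best known from retina and brain, had 4, 0 and 4 counts in GFP and 12, 24 and 11 in CRE. Its log2 fold change of 2.44 ± 0.66 (adjusted p = 0.0110) rested on these few reads, and the call was lost on the log2(FPKM + 1) scale (adjusted p = 0.0833).

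Of the type II cadherins, 3 fell, 1 rose and 2 were not called among 6 tested, where 25.7% of all genes tested fell and 25.5% rose. Cdh11 was measured at 505, 520 and 493 CPM in GFP and at 309, 298 and 282 CPM in CRE, with no overlap. The log2 fold change was -0.77 ± 0.05 (adjusted p = 1.10e-06), and it remained between -0.80 and -0.60 in all 16 settings. Of the fibroblast markers 7 of 8 were lower as well, and their part in the results for Cdh2 and Cdh11 was not tested. Cdh10, a type II cadherin known mainly from the nervous system, fell further. Its counts were 307, 309 and 295 in GFP and 147, 98 and 121 in CRE, a log2 fold change of -1.39 ± 0.14 (adjusted p = 2.37e-05) and a level of 38.0% of GFP.

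Cdh24 was the only type II cadherin called higher, from 16, 18 and 22 counts in GFP to 34, 36 and 41 in CRE. Its protein is known to bind catenins. The log2 fold change was 0.92 ± 0.23 (adjusted p = 0.00803), and it passed the threshold in all 16 settings. Cdh6, known as kidney cadherin, had 51, 67 and 48 counts in GFP and 36, 31 and 40 in CRE. The groups did not overlap and the log2 fold change was -0.71 ± 0.22 (adjusted p = 0.0206), but the call was lost without GFP replicate 2 (adjusted p = 0.0840), CRE replicate 1 (adjusted p = 0.0545) or CRE replicate 2 (adjusted p = 0.0689). It was also lost with DESeq2 (adjusted p = 0.0549), with library size alone and on both FPKM scales, and passed in 9 of 16 settings. Cdh18 had 18, 10 and 25 counts in GFP and 8, 11 and 11 in CRE, so that the groups overlapped (log2 fold change -0.88 ± 0.39, adjusted p = 0.0824). Without GFP replicate 2 it passed the threshold (log2 fold change -1.16, adjusted p = 0.0243). Cdh19, a marker of glial precursors, had a log2 fold change of -0.02 ± 0.19 (adjusted p = 0.944), with 36 to 48 counts in every library. Of 4 glial and neural crest markers tested, 1 was lower.

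T-cadherin (Cdh13), which is held to the membrane by a lipid anchor and lacks a cytoplasmic tail, was the sole tested gene among the 5 other cadherins. It was measured at 15.2, 15.7 and 15.8 CPM in GFP and at 12.6, 14.4 and 12.7 CPM in CRE, close to each other but without overlap. The log2 fold change was -0.24 ± 0.09 (adjusted p = 0.0414). This call passed in only 6 of 16 settings. It was lost without GFP replicate 1, 2 or 3 (adjusted p = 0.0517, 0.0820 and 0.102) and without CRE replicate 1 or 3 (adjusted p = 0.129 and 0.127).

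Among the nonclustered protocadherins 2 of 9 tested genes rose (22.2%), 3 fell (33.3%) and 4 were not called, near the 25.5% and 25.7% of all genes tested. Of the 4 delta-1 genes, Pcdh1 and Pcdh7 rose and the other two were not called, whereas of the 4 tested delta-2 genes, Pcdh17 and Pcdh18 fell and the other two were not called. Whether the subfamilies differ was not tested. Pcdh7 was measured at 319, 327 and 313 CPM in GFP and at 388, 370 and 392 CPM in CRE. All CRE libraries were above all GFP libraries, with a log2 fold change of 0.26 ± 0.04 (adjusted p = 0.000571). An antisense gene, 4932441J04Rik, covers 2235 of the 10604 exonic bases of Pcdh7, and whether counting used strand is not given in the sources used here. Pcdh1, a delta-1 protocadherin known from airway epithelium, was measured at 39.2, 33.7 and 37.1 CPM in GFP and at 53.7, 56.1 and 51.5 CPM in CRE. It rose by 0.55 ± 0.07 on the log2 scale (adjusted p = 7.16e-05).

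Of the other delta-1 genes, Pcdh9 gave a log2 fold change of -0.15 ± 0.08 (adjusted p = 0.120), and Pcdh11x, an X-linked gene, one of -0.15 ± 0.08 (adjusted p = 0.148). Their groups overlapped. Without GFP replicate 1, Pcdh9 passed the threshold (log2 fold change -0.20, adjusted p = 0.0438). The delta-2 gene Pcdh19, which is X-linked and known for a female-limited epilepsy, was at 107 to 126 CPM in all libraries, with a log2 fold change of 0.02 ± 0.06 (adjusted p = 0.829). With library size alone it was called higher (log2 fold change 0.18, adjusted p = 0.0229). Pcdh10 had a log2 fold change of -0.39 ± 0.23 (adjusted p = 0.192).

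Pcdh17 had 94, 99 and 106 counts in GFP and 38, 43 and 46 in CRE, a fall to 40.5% (log2 fold change -1.30 ± 0.15, adjusted p = 6.49e-05). Pcdh18 had 529, 501 and 571 counts in GFP and 394, 283 and 355 in CRE. Neither gene's groups overlapped, and the log2 fold change of Pcdh18 was -0.71 ± 0.11 (adjusted p = 0.000308). By fitted log2 fold change, the largest fall of the 60 tested members was that of Pcdh12, known as vascular endothelial cadherin-2, from 31, 34 and 34 counts to 4, 2 and 8. The log2 fold change was -2.86 ± 0.38 (adjusted p = 0.000149), and the CRE level was 13.3% of GFP. The endothelial markers moved the same way, Cdh5 from 142 to 80.1 CPM (log2 fold change -0.82), Emcn from 72.3 to 32.6 CPM (log2 fold change -1.15) and Vwf from 40.8 to 12.2 CPM (log2 fold change -1.74). Their part in the result for Pcdh12 was not tested.

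RefSeq promoter windows (GRCm38.p6, 250 bases before to 50 after the start) are shown for 5 of the called genes with an entry in the table, chosen to set 3 genes that fell beside 2 that rose. Capitals mark CpG, the dinucleotide whose methylation TET enzymes act on. The windows were chr15:18820079-18820378 on the plus strand for Cdh10, chr14:84443313-84443612 on the plus strand for Pcdh17, chr3:49757267-49757566 on the minus strand for Pcdh18, chr14:54641315-54641614 on the minus strand for Cdh24 and chr5:57717831-57718130 on the plus strand for Pcdh7.
Cdh10: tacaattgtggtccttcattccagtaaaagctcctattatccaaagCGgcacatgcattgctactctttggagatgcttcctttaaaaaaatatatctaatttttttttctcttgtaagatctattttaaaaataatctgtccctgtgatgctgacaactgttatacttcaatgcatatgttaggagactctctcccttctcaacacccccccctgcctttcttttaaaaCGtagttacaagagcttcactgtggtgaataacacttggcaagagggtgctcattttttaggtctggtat
Pcdh17: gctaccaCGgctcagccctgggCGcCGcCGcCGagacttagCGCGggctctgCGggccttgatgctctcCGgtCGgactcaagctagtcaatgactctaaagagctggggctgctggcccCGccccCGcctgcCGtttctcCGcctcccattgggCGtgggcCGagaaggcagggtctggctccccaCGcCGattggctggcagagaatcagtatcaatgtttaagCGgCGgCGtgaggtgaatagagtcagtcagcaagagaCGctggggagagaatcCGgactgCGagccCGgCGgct
Pcdh18: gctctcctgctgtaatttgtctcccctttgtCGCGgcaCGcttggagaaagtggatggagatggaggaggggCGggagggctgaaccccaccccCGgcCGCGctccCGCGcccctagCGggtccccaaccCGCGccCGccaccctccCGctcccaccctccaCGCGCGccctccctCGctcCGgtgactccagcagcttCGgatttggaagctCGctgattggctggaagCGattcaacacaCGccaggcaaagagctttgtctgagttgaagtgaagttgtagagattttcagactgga
Cdh24: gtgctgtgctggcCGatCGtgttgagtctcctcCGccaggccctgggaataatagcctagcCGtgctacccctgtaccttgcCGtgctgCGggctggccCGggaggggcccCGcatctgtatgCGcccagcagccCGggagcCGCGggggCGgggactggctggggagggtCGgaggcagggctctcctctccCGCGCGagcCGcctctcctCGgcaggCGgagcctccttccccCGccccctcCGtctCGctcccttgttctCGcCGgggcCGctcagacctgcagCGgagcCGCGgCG
Pcdh7: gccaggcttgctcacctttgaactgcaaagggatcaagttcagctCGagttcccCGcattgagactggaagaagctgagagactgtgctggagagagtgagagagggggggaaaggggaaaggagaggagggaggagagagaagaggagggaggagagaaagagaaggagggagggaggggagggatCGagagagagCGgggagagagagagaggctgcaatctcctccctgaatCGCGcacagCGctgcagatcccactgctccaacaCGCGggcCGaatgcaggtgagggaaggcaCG

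The window of Cdh10 lies inside the GENCODE gene, which begins at 18818947 on chromosome 15. Genes that fell held 2 CpG (Cdh10), 26 (Pcdh17) and 23 (Pcdh18), and those that rose held 30 (Cdh24) and 11 (Pcdh7). Cdh6, called lower and not printed, held 8. Over the 10120 tested genes with a window the median was 21 and the quartiles were 13 and 29. A comparison over the members was void, since only 10 of the 60 tested members (16.7%) had a window. The windows are a description of sequence, and no methylation was measured in these libraries.

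The clustered protocadherins made up 41 of the 60 tested members and 26 of the 35 lower calls. None of them was called higher by edgeR with TMM and all 6 libraries, by DESeq2 or by limma-voom. The 3 clusters lie side by side on the plus strand of chromosome 18 (GRCm38, GENCODE M21), the alpha genes from 36930184 to 37187661, the beta genes from 37264938 to 37524479 and the gamma genes from 37661793 to 37841873. At an unadjusted p under 0.05, none of the 41 tested cluster genes was higher and 28 were lower, where 28.3% and 28.6% of all genes tested were. Summed levels were very unequal between clusters, at 868 ± 28.8 CPM for gamma, 122 ± 2.45 CPM for beta and 5.02 ± 0.84 CPM for alpha in GFP (SD, n = 3). Genes of the alpha and of the gamma cluster share exons, and reads of these may be missing from the sums.

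In the beta cluster, whose genes are each a single coding exon, 12 of 17 tested genes fell (70.6%, against 25.7% of all genes tested). The median log2 fold change was -0.70. The most abundant beta genes were Pcdhb17, Pcdhb22 and Pcdhb16. Pcdhb17 was measured at 25.1, 26.6 and 25.5 CPM in GFP and at 18.5, 16.7 and 18.3 CPM in CRE (log2 fold change -0.53 ± 0.07, adjusted p = 0.00016). Pcdhb22 went from 376, 422 and 470 counts to 316, 260 and 272 (log2 fold change -0.65 ± 0.08, adjusted p = 0.000123). Pcdhb16 gave a log2 fold change of -0.58 ± 0.09 (adjusted p = 0.000555). In each of these genes every CRE library lay below every GFP library.

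The steepest fall among the beta genes was that of Pcdhb21, from 96, 83 and 102 counts to 47, 50 and 32, a log2 fold change of -1.19 ± 0.20 (adjusted p = 0.000719). Pcdhb21 and Pcdhb22 share 455 exonic bases, so their counts are not wholly separate. Pcdhb18 and Pcdhb19 gave log2 fold changes of -1.14 and -0.96. The beta genes that were not called (Pcdhb4, Pcdhb11, Pcdhb12, Pcdhb13 and Pcdhb15) had at most 68 counts in a library. Pcdhb4 was the only one with a positive log2 fold change (0.36 ± 0.33). In all 16 settings 11 of the 12 lower calls passed, and the exception was Pcdhb20 (log2 fold change -0.70, adjusted p = 0.0364), whose groups overlapped. Its call was lost without GFP replicate 2 or 3 (adjusted p = 0.142 and 0.0907) or CRE replicate 1 or 3 (adjusted p = 0.0748 and 0.127), with library size alone and on both FPKM scales, and it passed in 9 of 16 settings. The summed beta level was 120, 125 and 121 CPM in GFP and 79.7, 74.1 and 75.7 CPM in CRE, or 62.5% of GFP.

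In the gamma cluster all 21 genes were tested and 14 fell (66.7%, against 25.7% of all genes tested). A negative log2 fold change was found in 20, and in 6346 of the 12862 genes tested. The median was -0.44. By subfamily 7 of 12 A genes, 5 of 6 B genes and 2 of 3 C genes fell. In all 16 settings 9 of the 14 lower calls passed, and the exceptions were Pcdhga4, Pcdhga10, Pcdhgb6, Pcdhgb7 and Pcdhgc3. Pcdhgb6 lost its call with library size alone and on both FPKM scales, Pcdhga4 on both FPKM scales and Pcdhgb7 on the log2(FPKM + 0.1) scale. Pcdhgc5 moved furthest, from 1209, 1349 and 1528 counts in GFP to 608, 638 and 615 in CRE. The log2 fold change was -1.20 ± 0.05 (adjusted p = 2.53e-07), the smallest p of any member, and the CRE level was 43.6% of GFP. Pcdhga8 fell by 1.13 ± 0.08 on the log2 scale, from 21.9, 23.5 and 22.1 CPM to 11.1, 9.80 and 9.98 CPM. Pcdhgb2, the most abundant B gene, went from 42.8, 43.5 and 45.0 CPM to 30.4, 35.6 and 34.3 CPM (log2 fold change -0.39 ± 0.07, adjusted p = 0.000803). None of these groups overlapped.

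Pcdhgc3, a C-type gene expressed widely outside neurons, held more than the other 20 gamma genes together. It was measured at 446, 476 and 429 CPM in GFP and at 405, 410 and 422 CPM in CRE, near each other but without overlap. The log2 fold change was -0.13 ± 0.05 (adjusted p = 0.0483). That call did not hold across settings, since it passed in 7 of 16 and the sign turned positive with library size alone (0.04) and on both FPKM scales (0.04). It was lost without GFP replicate 2 (adjusted p = 0.162) and without CRE replicate 1, 2 or 3 (adjusted p = 0.148, 0.128 and 0.0713). An antisense gene, BC037039, covers 1559 of its 5499 exonic bases.

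As a share of the gamma counts, which no scaling touches, Pcdhgc3 went from 52.1, 52.8 and 50.6% in GFP to 58.8, 57.6 and 57.8% in CRE. Pcdhgc5 went from 8.79, 8.44 and 9.37% to 4.74, 4.96 and 4.45%. Both sets were without overlap (exact permutation test, two-sided, p = 0.1, the smallest possible). Without Pcdhgc3 the summed gamma level was 418 ± 7.91 CPM in GFP and 298 ± 12.4 CPM in CRE, or 71.4%, against 81.9% with it. Pcdhgb4 alone among gamma genes had a positive log2 fold change, 0.20 ± 0.11 (adjusted p = 0.149). It passed as higher without CRE replicate 2 (log2 fold change 0.31, adjusted p = 0.0260), with library size alone (log2 fold change 0.36) and on both FPKM scales. Pcdhga10 (log2 fold change -0.22, adjusted p = 0.0347) lost its call without GFP replicate 2 or 3 (adjusted p = 0.119 and 0.0525) or CRE replicate 1 or 2 (adjusted p = 0.140 and 0.0906). It was also lost with DESeq2 (adjusted p = 0.0537), upper-quartile scaling, library size alone and both FPKM scales, and passed in 7 of 16 settings.

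**Figure D3:**
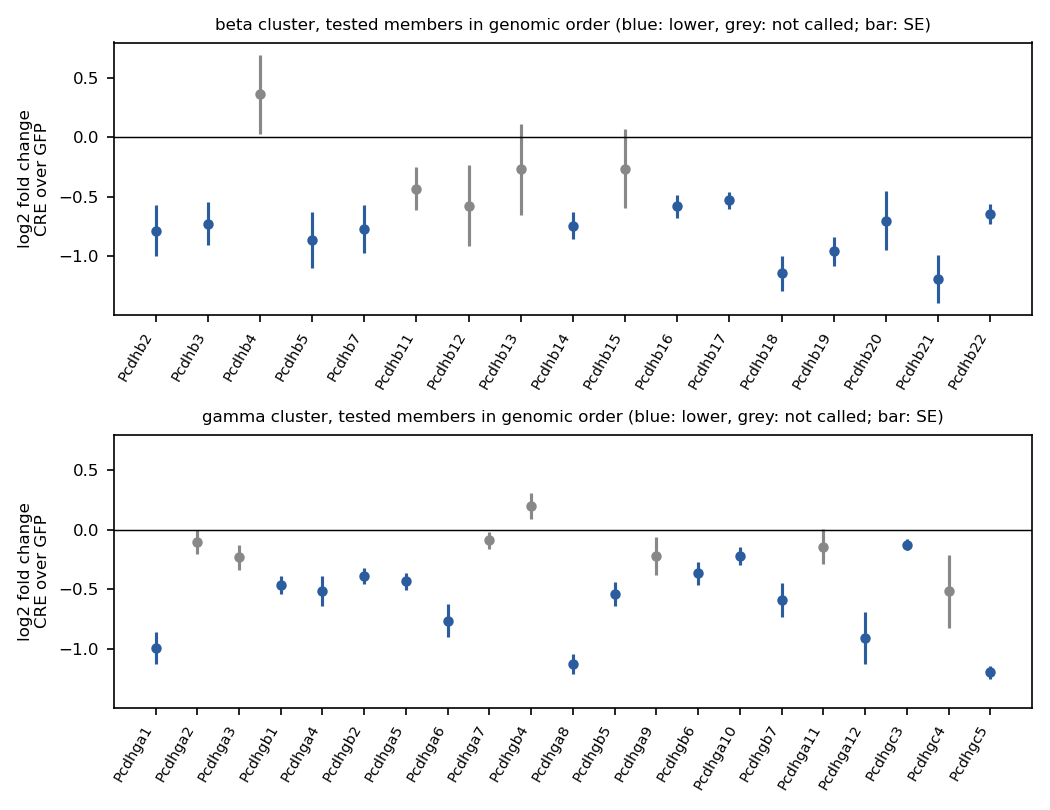
Log2 fold change of CRE over GFP with its standard error for the 17 tested beta genes and the 21 gamma genes, in their order along the chromosome. Blue points are called lower and grey points are not called. In the beta array the lowest values (Pcdhb18, Pcdhb19 and Pcdhb21) lie toward the end, and in the gamma array the lowest (Pcdhga1, Pcdhga8 and Pcdhgc5) are spread along its length.

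Position in the array went only weakly with the effect. Spearman's rho between order and log2 fold change was -0.20 across 17 beta genes and -0.12 across 21 gamma genes, a description across genes of the same libraries that are not independent replicates. Gamma genes have their last exons in common, with a median of 2119 exonic bases shared on the same strand, and 55.4% (median) of a gene's exonic bases are free of other genes on that strand. The antisense gene Gm26672 covers the remaining 2613 of the 4732 exonic bases of Pcdhga10, so without strand no base of that gene is its own. Pcdhgc4 had 39 to 108 counts per library although it shares those exons with Pcdhgc3, which had 7171 to 8438. Reads of the common exons were therefore not counted in full for each gene, and the values above describe mainly the variable exons.

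Alpha genes gave little to measure. They also share exons, with a median of 2860 exonic bases shared on the same strand and 46.4% (median) free of other genes there. Pcdha4 had 494 of its 5768 exonic bases free on its strand. Reads of the shared exons may be missing from these counts. Of 14, 3 were tested, none was called in either direction, and none had an unadjusted p under 0.05 in the edgeR fit. DESeq2 and limma-voom called none either. Pcdha10 had 44, 30 and 47 counts in GFP and 29, 48 and 45 in CRE (log2 fold change -0.06 ± 0.26, adjusted p = 0.879). The values of Pcdha12 were 0.45 ± 0.37 (adjusted p = 0.333) and of Pcdha4 0.27 ± 0.57 (adjusted p = 0.720). Pcdha4 rested on 1 library, since GFP replicate 2 had 30 counts against 5 and 7 in the others, and without it the log2 fold change was 1.47 (adjusted p = 0.0262). The sum over all 14 was 5.02 ± 0.84 CPM in GFP and 6.19 ± 1.10 CPM in CRE, so that these genes gave a precision far below that of the other clusters.

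**Figure D4:**
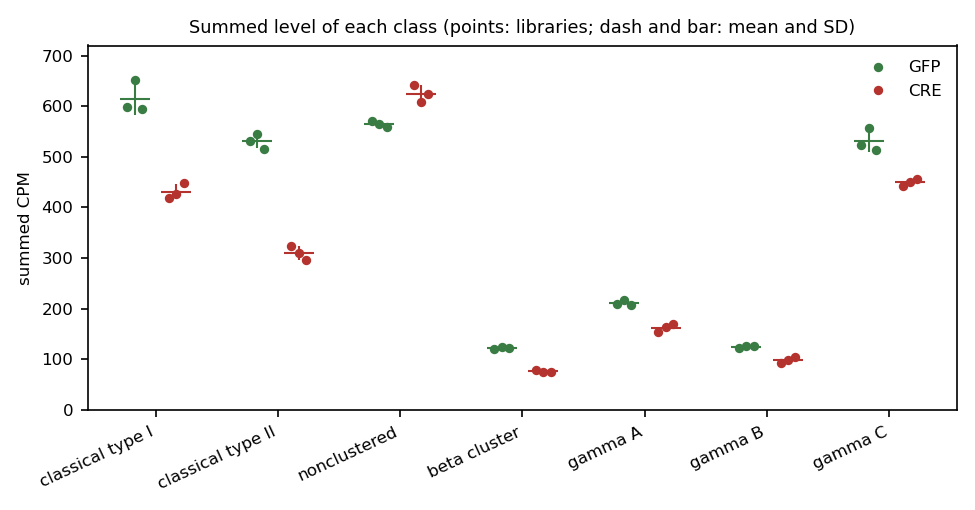
Summed CPM by class in every library, with GFP in green and CRE in red, the dash at the mean and the bar at the SD. The alpha and other cadherin sums are not drawn. Type I, type II, beta and gamma sums are lower in all CRE libraries, and the nonclustered sum is higher.

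Across classes, the summed level in CRE was 70.2% of GFP for type I cadherins, 58.4% for type II, 62.5% for beta and 81.9% for gamma, while nonclustered protocadherins stood at 111%. The other cadherins stood at 84.3%, and the alpha genes, with few counts, at 123%. The nonclustered sum was 571, 565 and 559 CPM in GFP and 642, 609 and 625 CPM in CRE, and most of it was Pcdh7. These sums describe where the counts lie and carry no test.

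Genes that work with cadherins moved in both directions. Of 69 listed partners, 58 were tested, 13 rose and 16 fell, near the 25.5% and 25.7% of all genes tested, and the median log2 fold change was 0.03. With library size alone 29 rose and 9 fell, where 43.0% and 16.2% of all genes did. Of 14 tested catenins and adaptors, 8 rose and 2 fell, where 25.5% of all genes tested rose, and the difference was not tested. β-catenin (Ctnnb1), which binds the tail of classical cadherins, was measured at 681, 631 and 658 CPM in GFP and at 726, 721 and 733 CPM in CRE (log2 fold change 0.15 ± 0.04, adjusted p = 0.0153). Without GFP replicate 2 that call was lost (log2 fold change 0.12, adjusted p = 0.0596). p120-catenin (Ctnnd1), which keeps cadherins at the membrane, went the other way, from 372, 392 and 374 CPM to 301, 297 and 286 CPM (log2 fold change -0.37 ± 0.04, adjusted p = 6.96e-05).

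The p120 relatives Arvcf and Pkp4 rose, by 1.41 ± 0.14 and 0.74 ± 0.07 on the log2 scale (adjusted p = 2.54e-05 and 1.51e-05), as did plakoglobin (Jup, 0.58 ± 0.09) and Nectin3 (0.82 ± 0.06), an adhesion molecule that binds afadin. Arvcf was measured at 6.59, 4.40 and 4.94 CPM in GFP and at 13.2, 15.3 and 13.7 CPM in CRE. α-catenin (Ctnna1) was not called (log2 fold change -0.08 ± 0.04, adjusted p = 0.168), and its sign turned positive with library size alone and on both FPKM scales.

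Of 13 tested genes in the list of the wider cadherin superfamily, 5 fell (Dsg2, Dchs1, Fjx1, Fat1 and Clstn1) and 1 rose (Dsp). Of all genes tested 25.7% fell and 25.5% rose. Dsp and Fjx1 belong with the list by function and are not cadherins themselves. The calls of Fat1 and Clstn1 (log2 fold change -0.18 and -0.14, adjusted p = 0.0414 and 0.0298) were fragile. Both were lost with library size alone, upper-quartile scaling and on both FPKM scales, and the sign of Clstn1 was then positive with library size alone and on the FPKM scales. Leaving out GFP replicate 1 (adjusted p = 0.103) or CRE replicate 1, 2 or 3 (adjusted p = 0.0571, 0.156 and 0.0729) ended the call of Fat1, and leaving out GFP replicate 2 (adjusted p = 0.0803) or CRE replicate 1 or 2 (adjusted p = 0.118 and 0.106) that of Clstn1. Desmoglein-2 (Dsg2), a desmosomal cadherin, went from 6.84, 6.93 and 7.17 CPM to 2.20, 2.16 and 3.27 CPM (log2 fold change -1.45 ± 0.17, adjusted p = 7.54e-05). Desmoplakin (Dsp), the plaque protein of desmosomes, went up from 6.71, 5.64 and 5.66 CPM to 15.6, 19.1 and 14.4 CPM (log2 fold change 1.45 ± 0.13, adjusted p = 1.28e-05). Dchs1, the ligand of Fat4, fell by 1.07 ± 0.17 on the log2 scale (adjusted p = 0.000506). Fjx1, the kinase-like modifier of that pair, had a log2 fold change of -0.59 ± 0.17 (adjusted p = 0.0154), a call lost without CRE replicate 1 (adjusted p = 0.0606) or CRE replicate 2 (adjusted p = 0.0521), with library size alone (adjusted p = 0.0529) and on both FPKM scales.

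Of 8 tested transcription factors known to act on cadherin genes, 4 fell and 4 were not called, where 25.7% of all genes tested fell. Those that fell were Zeb2 (log2 fold change -0.67 ± 0.05, adjusted p = 2.57e-06), Tcf3 (-0.62 ± 0.06, adjusted p = 1.91e-05), Twist2 (-0.51 ± 0.11, adjusted p = 0.00351) and Snai2 (-0.44 ± 0.09, adjusted p = 0.00184). Among 9 proteases and secretase subunits that shed cadherins, 2 rose and 4 fell, where 25.5% and 25.7% of all genes did. Psenen, a subunit of gamma-secretase, had the lowest log2 fold change of these (-0.32 ± 0.07, adjusted p = 0.00228). With library size alone all 4 lower calls were lost (adjusted p = 0.0586 for Psenen, 0.0585 for Mmp14, 0.0912 for Aph1a and 0.102 for Ncstn). Those of Mmp14, Aph1a and Ncstn were also lost on both FPKM scales. Of the 2 that rose, Adam10 lost its call with DESeq2 (adjusted p = 0.0728) and with no filter beyond 1 count. It was also lost without GFP replicate 1 or 3 or any 1 CRE replicate. Of 14 genes that govern promoter choice or silencing in the clusters, 2 rose (Wapl and Lrif1) and 1 fell, fewer than the 25.5% and 25.7% of all genes by count, with no test of that difference. The gene that fell was the cohesin subunit Stag2 (log2 fold change -0.30 ± 0.04, adjusted p = 0.000272), whose call was lost on both FPKM scales (adjusted p = 0.0667 and 0.0660). Lrif1 lost its call with DESeq2 (adjusted p = 0.165), with no filter beyond 1 count (adjusted p = 0.0550), without GFP replicate 2 or 3 (adjusted p = 0.0738 and 0.0848) and without CRE replicate 2 or 3 (adjusted p = 0.0895 and 0.0735). The insulator protein gene Ctcf was at 61.9, 69.9 and 68.5 CPM in GFP and at 67.0, 68.1 and 68.8 CPM in CRE (log2 fold change 0.03 ± 0.05, adjusted p = 0.722), and was called higher with library size alone (log2 fold change 0.19, adjusted p = 0.0139) and on both FPKM scales.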

How the data were processed

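The 6 libraries, 3 GFP and 3 CRE, were grouped and numbered by their titles. Trimmomatic (trimming), HISAT2 (alignment to GRCm38), HTSeq-count (counting), Cufflinks (FPKM) and DESeq (testing) are the tools in the study's methods. The deposited values used here were gene counts, which had not been normalized, and the authors' FPKM per library. Versions and the strand setting are not given in the sources used here, and the labels and the methods name different extraction and library kits. The deposited table also holds the authors' group means, fold changes, p-values and false discovery rates, which were not used.

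The main test was the quasi-likelihood test of edgeR 4.0.16 (in R 4.3.3), two-sided and without covariates, on TMM-scaled counts of the 12862 genes that filterByExpr kept at a minimum count of 10 and a minimum total of 15. Its p was adjusted by Benjamini-Hochberg, with a threshold of 0.05. The SE was taken from the log2 fold change and the F value, and values after ± are SE for log2 fold changes and SD otherwise. A count of 0 allows up to 3 counts, 0.156 to 0.187 CPM, for counting error only. All 91 identifiers were found in GENCODE M21. Scripts were tested on simulated data. Alternatives were RLE, upper-quartile and library-size scaling, 2 other count filters, DESeq2 1.42.0, limma-voom (limma 3.58.1), limma on log2(FPKM + 1) and log2(FPKM + 0.1), a replicate block, each library left out, and the study's rule (unadjusted p under 0.05 and a fold change over 1.5 or under 0.66). Same-numbered libraries were checked for shared deviations. Every pair within a group differed by more than counting error.

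The members, classes, partner genes and marker lists were chosen with earlier results of these data known. Named in the text are all tested cadherins and nonclustered protocadherins, the 3 most abundant tested genes and the extreme calls of each cluster, and partners with an absolute log2 fold change over 0.5 among those called. Further genes were named after their values were seen, where a count had to be itemized or a call depended on 1 library.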

Additional observations from a re-analysis of the deposited data

How the results depend on the processing

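Members called lower numbered 35 in the edgeR fit and 27 to 36 under the other scalings, filters, tests and left-out libraries, so that these alternatives stayed within 1.5 times the count. The study's rule of an unadjusted p and a fold change gave 23 lower and 2 higher members (where 10.3% of all genes were lower and 7.52% higher), 5 lower gamma genes, 0 higher nonclustered protocadherins, and 6 higher and 4 lower partners. DESeq2, which fitted 85 members including those without an adjusted p, called 37.6% of them lower against 17.2% of all genes fitted. Library size alone gave 29 higher and 9 lower partners, and both FPKM scales gave 22 higher and 10 lower. Gamma genes called lower numbered 9 on the log2(FPKM + 0.1) scale, and 1 gamma gene (Pcdhgb4) was called higher with library size alone and on both FPKM scales. Classical cadherins called higher numbered 1 with at least 10 counts in every library, where Cdh4 was not tested, and 1 on the log2(FPKM + 1) scale. The sign of the log2 fold change was opposite to that of the edgeR fit with library size alone (0.14 for Cdh19, 0.0094 for Pcdh11x, 0.011 for Pcdh9, 0.11 for Pcdha10, 0.036 for Pcdhgc3, 0.086 for Ctnna1, 0.019 for Clstn1, 0.017 for Pcdhga11, 0.059 for Pcdhga2 and 0.071 for Pcdhga7), on the log2(FPKM + 1) scale (0.055 for Cdh19, 0.024 for Pcdha10, 0.036 for Pcdhgc3, 0.076 for Ctnna1, 0.037 for Clstn1, 0.0014 for Pcdhga11, 0.046 for Pcdhga2 and 0.093 for Pcdhga7) and on the log2(FPKM + 0.1) scale (0.12 for Cdh19, 0.063 for Pcdha10, 0.037 for Pcdhgc3, 0.076 for Ctnna1, 0.038 for Clstn1, 0.061 for Pcdhga2 and 0.10 for Pcdhga7). Of these genes Pcdhgc3 and Clstn1 were called. The median over all genes also moved up, by 0.16 with library size alone, 0.13 on the log2(FPKM + 1) scale and 0.16 on the log2(FPKM + 0.1) scale. Its part in these signs was not tested. With 1 library left out at a time, 30 to 36 members were called lower and 4 to 5 higher, 0 to 1 gamma genes and 0 to 1 alpha genes were called higher, and the log2 fold change changed sign in genes that were not called, lying between -0.073 and 0.042 for Cdh19, between -0.040 and 0.074 for Pcdh19, between -0.24 and 0.14 for Pcdha10, between -0.10 and 1.47 for Pcdha4, between -0.49 and 0.084 for Pcdhb15, between -0.25 and 0.021 for Pcdhga11 and between -0.027 and 0.057 for Ctcf. The correlations of same-numbered deviations were 0.05, 0.18 and -0.02, against -0.12 to 0.07 for other pairs. Deviations from a group mean cancel within the group, so these values depend on each other. They cannot show whether the numbers in the titles pair the libraries. The replicate block gave 35 lower and 4 higher members and changed no call of a member. Counts were too few for a test in 31 members, 11 of them alpha genes.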
